A study of Arabidopsis thaliana with 6 samples.

Results

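Narrow small RNA (sRNA) clusters of the chromosome arms were described across libraries from *msh1* memory plants and wild type (WT) plants of *Arabidopsis thaliana*. A cluster is a genomic interval that collects aligned sRNA reads. An interval was counted as narrow at a width of 200 bases or less. It had to start outside a stretch around each centromere and outside the ribosomal end of chromosome 2, and to share no base with an annotated tRNA, snoRNA or snRNA gene. The rule was met by 284 intervals, which are 1.66% of all clusters in the tables, and it used no measured level. The width of an interval may itself depend on where and how many reads aligned. Its part in the contrasts with wide clusters was not tested. The 284 lay on chromosomes 1 to 5 in numbers of 70, 57, 55, 47 and 55. A further 131 narrow intervals of the arms lay at genes of those RNA classes and were left out. In the same arms, 10134 clusters were wider than 200 bases.

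The memory group held 2 single plants and the WT group 4 single plants, all of the Col-0 accession. The tissue taken at bolting was rosette leaf by the study's sampling figure, and whole plants by its methods. Plants were grown at 22 °C under a 12 h day. The *MSH1* protein works in plastids and mitochondria. Memory plants carried no transgene themselves and were first-generation progeny of a plant in which *MSH1* had been silenced by an RNAi transgene. According to the study's methods they were full sibs from one parent, and WT plants were taken from negative RNAi transformation events. An effect of the memory plants' family and one of memory cannot be told apart. In whole tissue, fewer cells of a type cannot be told apart from less sRNA per cell.

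Plant sRNAs are cut from longer RNAs by Dicer-like proteins. A microRNA (miRNA) is cut from a stem-loop transcript of its own gene, so its reads pile up on a short interval, and it guides an ARGONAUTE protein to matching mRNAs. Bases 2 to 8 of a miRNA form its seed. Small interfering RNAs usually come from longer double-stranded RNA, as at transposons, and cover wider intervals. Fragments of mRNA and organellar RNA can also be sequenced as sRNA. The deposited tables give neither the length nor the strand of a read, so these kinds of sRNA were counted together.

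Library totals were 12099251 and 7966799 counts in memory and between 10151442 and 18134284 counts in WT. The narrow arm clusters received 287900 and 280814 counts in memory libraries and 190812 to 438805 counts in WT libraries. Between 34 and 70 of the 284 clusters were at 0 in a library, and 8 were at 0 in all 6. A count of 3 corresponded to 0.202 to 0.491 CPM (counts per 1000000 of the scaled library size). Of the libraries, WT 1 stood apart: it was the deepest, and 46 narrow arm clusters drew nearly all of their counts from it. None of these 46 clusters was tested, because the filter on low counts asks for enough counts in more than 1 library. Clusters at ribosomal RNA genes, none of them narrow, took 40.8% and 34.5% of the memory libraries and 30.7% to 36.9% of the WT libraries.

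A selection of mature miRNAs from the more abundant narrow arm clusters at miRNA genes is shown here, since such clusters held most of the counts. Counts were given per interval, so none can be credited to a single mature sequence. Capitals mark the seed. The sequences were read from the RefSeq genome TAIR10.1 at the annotated mature positions, and all of those shown lie whole within their cluster.
miR398a-3p: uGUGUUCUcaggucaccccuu
miR398b-3p and miR398c-3p (at wide clusters): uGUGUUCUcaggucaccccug
miR159c: uUUGGAUUgaagggagcuccu
miR159b-3p (at a wide cluster): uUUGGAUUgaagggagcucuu
miR391-5p: uUCGCAGGagagauagcgcca
miR157b-5p and miR157c-5p: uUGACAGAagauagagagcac
miR156b-5p: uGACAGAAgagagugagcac
miR858a: uUUCGUUGucuguucgaccuu
miR319a: uUGGACUGaagggagcucccu
The mature miR398a-3p differed from those of *MIR398b* and *MIR398c* by U21G, counted from the 5′ end with the base of miR398a first. In the same notation miR159c differed from miR159b-3p by C20U. In both comparisons the seeds were identical, and the reads of such relatives are hard to assign to one gene.

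In the list above, miR156b-5p (6 exact copies), miR157b-5p and miR157c-5p (3) and miR319a (2) share their exact mature sequence with other genes. A second set is shown because its members do so too, and a read of such a sequence cannot name its gene.
miR164a (shared with *MIR164b*): uGGAGAAGcagggcacgugca
miR394a (shared with *MIR394b*): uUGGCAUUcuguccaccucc
miR166d and miR166g (7 genomic copies): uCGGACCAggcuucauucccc
miR395a, miR395d and miR395e: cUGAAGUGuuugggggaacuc
In all, 40 annotated mature miRNAs overlapped narrow arm clusters. They had 34 different seeds, and 15 of the 40 had more than 1 exact copy in the nuclear chromosomes.

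The shortest intervals are no wider than 1 read, and 4 of them that recur in the results are shown in full, in lower case as read from the plus strand.
Cluster_7190 (chr2:19187117-19187138): tgatgcgacctggtcggatggt
Cluster_13002 (chr4:14153480-14153500): cctgaatacattagcaaggga
Cluster_13558 (chr5:1628522-1628547): ccaagaagaggactcgaaccagtggc
Cluster_3509 (chr1:24290779-24290793): ggcgtagacgatgga

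Narrow arm clusters fell mostly in exons and between genes, and miRNA genes held 10.2% of them. By the RefSeq annotation, 122 shared a base with an exon of a protein-coding gene (43.0%), 105 lay outside genes (37.0%), 29 lay at miRNA genes and 14 in introns. Pseudogenes and other noncoding genes held 7 each. Among wide arm clusters, 176 lay at miRNA genes (1.74%), and 59.9% shared a base with a protein-coding exon. Of the 44 narrow clusters outside the arms, in the stretches left out by the rule, 3 lay at miRNA genes (6.82%). There, 22.7% shared a base with a protein-coding exon. A wider interval overlaps a gene more readily, so these shares are descriptions. The annotation held 326 miRNA genes, of which 29 had a narrow and 185 a wide arm cluster. Widths ran from 15 to 200 bases (median 126), and the median GC content was 37.7%, against 35.4% for wide arm clusters. For narrow clusters outside the arms the median GC content was also 37.7%.

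Members at miRNA genes folded more tightly than other members. The predicted minimum free energy, per 100 bases and for the lower of both strands, had a median of -34.4 kcal/mol over the 29 members at miRNA genes. The median was -20.5 kcal/mol in coding-gene exons, -15.6 kcal/mol in introns and -15.3 kcal/mol outside genes, over members of at least 50 bases. Of 209 folded members away from miRNA genes, 3 reached the miRNA median. Cluster_400 and Cluster_709 lay in coding exons and had GC contents of 60.2% and 59.1%. The third, Cluster_10329, overlapped an annotated noncoding RNA, AT3G08545. It matched mitochondrial DNA over 33 bases and plastid DNA over at least 30 bases. Cluster_400 drew at least 90% of its summed CPM from WT 1, and Cluster_10329 drew as much from WT 2. Not every member at a miRNA gene had a low energy: the cluster at *MIR159c* gave -9.34 kcal/mol, and it shared 63 of its 137 bases with the annotated gene.

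The clusters at miRNA genes held 89.3% of all counts of the narrow arm clusters, and the cluster at *MIR398a* alone held 78.7%. Narrow arm clusters made up 2.38% and 3.52% of the counts of memory libraries, against 2.42%, 2.00%, 1.88% and 2.54% of WT libraries. The means were 2.95 ± 0.81% in memory and 2.21 ± 0.319% in WT (SD, n = 2 and 4), and the groups overlapped (exact two-sided permutation test, p = 0.4, adjusted p = 0.533 over 4 shares). The smallest p that 2 against 4 libraries can give is 0.133. The difference of 0.742 percentage points was 0.169 without memory 2, 1.315 without memory 1 and 0.0177 without the *MIR398a* cluster. At miRNA genes the share was 2.22% and 3.15% in memory, against 1.96%, 1.85%, 1.71% and 2.39% in WT (exact permutation p = 0.267, adjusted p = 0.533). Without the *MIR398a* cluster that share averaged 0.251% in memory and 0.269% in WT, so the sign of the difference came from this 1 cluster.

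In exons of protein-coding genes, narrow arm clusters took 0.0397% and 0.0663% of memory libraries, against 0.245%, 0.0391%, 0.0425% and 0.0366% of WT libraries. WT 1 was far above all other libraries (exact permutation p = 0.933, adjusted p = 0.933). Without WT 1 the difference of memory minus WT turned to 0.0136 percentage points, against -0.0379 with it. Outside genes the shares were 0.0955% and 0.294% in memory, against 0.173%, 0.0899%, 0.111% and 0.0902% in WT (exact permutation p = 0.4, adjusted p = 0.533). Memory 2 was the highest of the 6, and without it the difference was -0.0206 percentage points, against 0.0785 with it.

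The width by which clusters were chosen is also the divisor of a density per base, so densities are given as a description. The median density was 0.898 and 0.884 CPM per 100 bases in memory libraries and 2.35, 1.07, 0.999 and 0.960 in WT libraries. Wide arm clusters had 0.402 to 0.462 CPM per 100 bases. The difference averaged 0.776 ± 0.551 CPM per 100 bases (SD, n = 6) and was positive in 6 of 6 libraries. Without the division the order turned round, with a mean of the medians of 1.34 CPM for narrow and 4.07 CPM for wide arm clusters.

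The most abundant narrow arm cluster, Cluster_4365 (chr2:1040900-1041083), lay at *MIR398a*. The miRNA miR398 is known to target mRNAs of copper/zinc superoxide dismutases and to accumulate when copper is scarce. This cluster had 237146 and 231925 counts in memory, against 321723, 181683, 141787 and 219219 counts in WT. Scaled, it stood at 18531 and 37933 CPM in memory and between 12354 and 21698 CPM in WT, so memory 2 was the highest library while memory 1 lay within the WT range. The log2 fold change was 0.76 ± 0.47 (SE; adjusted p = 0.581, edgeR). The wide cluster at *MIR398b* had 22343 and 61057 counts in memory, against 112308, 43822, 21104 and 24457 in WT, and that at *MIR398c* had 80922 and 78179 in memory, against 217386, 74116, 35513 and 79897 in WT. Over the clusters at all 3 genes, the *MIR398a* cluster held 69.7% and 62.5% of the counts in memory and 49.4%, 60.6%, 71.5% and 67.8% in WT.

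**Figure D1:**
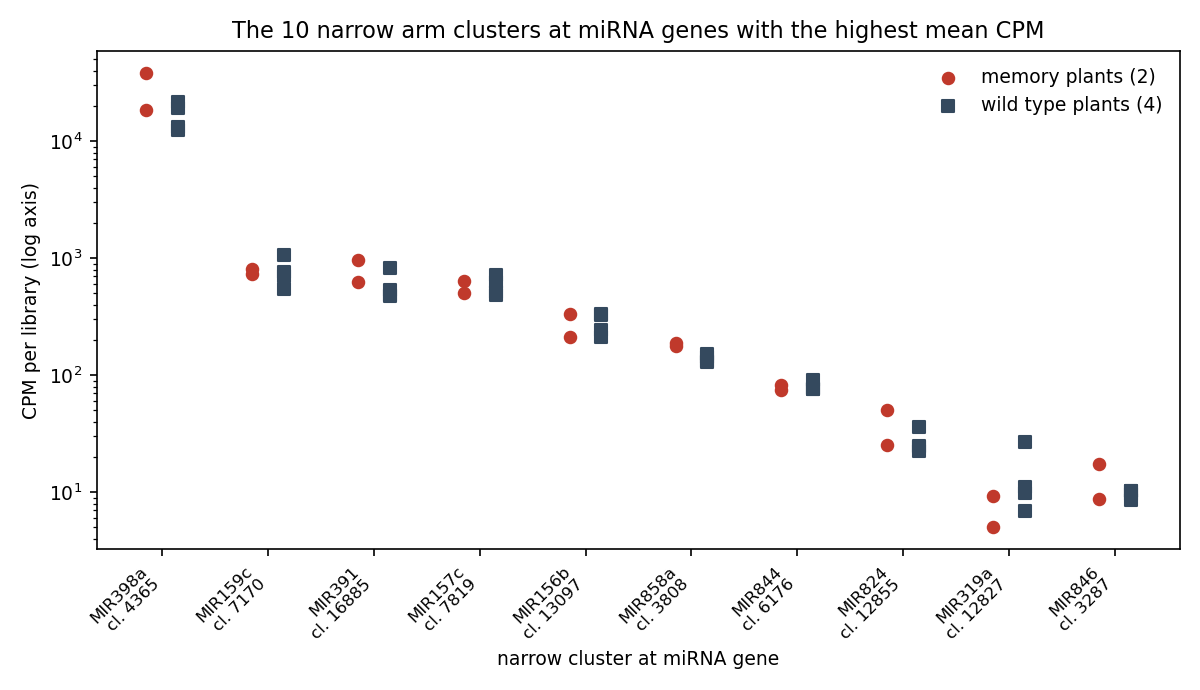
Level of the 10 narrow arm clusters at miRNA genes with the highest mean, as CPM on a log axis. Circles are the 2 memory libraries and squares the 4 WT libraries. At *MIR858a* both memory libraries (179 and 187 CPM) lie above the WT libraries (130 to 152 CPM), while at the other genes the groups overlap.

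The cluster at *MIR159c*, Cluster_7170 (chr2:18994794-18994930), averaged 773 ± 52.3 CPM in memory and 771 ± 218 CPM in WT. The miR159 family targets mRNAs of GAMYB-like transcription factors. The clusters at its more abundant relatives *MIR159a* and *MIR159b* were wide, and the *MIR159c* cluster held 4.16% to 5.75% of the summed counts in the 6 libraries. Cluster_16885 (chr5:24293107-24293282) at *MIR391* had 630 and 963 CPM in memory, against 532, 482, 831 and 480 CPM in WT. Memory 2 and WT 3 were high, and the log2 fold change of 0.45 ± 0.31 (SE) had an adjusted p of 0.604 (edgeR).

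miR156 and miR157 repress SPL transcription factors and so hold plants in the juvenile phase. Cluster_7819 at *MIR157c* (chr3:6244523-6244718) averaged 569 ± 95.8 CPM in memory and 586 ± 108 CPM in WT. Cluster_13097 at *MIR156b* (chr4:15074918-15075074) averaged 273 ± 85.4 CPM in memory and 280 ± 62.1 CPM in WT (SD, n = 2 and 4). Neither difference exceeded the spread between libraries.

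Of the 23 members at miRNA genes that were tested, 1 reached an unadjusted p below 0.05 in edgeR, against 10.5% of all tested clusters. It was Cluster_3808 at *MIR858a* (chr1:26773688-26773754), whose miRNA targets mRNAs of MYB factors of flavonoid synthesis. It had 2295 and 1146 counts in memory, against 1923, 1816, 1632 and 1719 in WT. After scaling these were 179 and 187 CPM in memory, against 130, 131, 142 and 152 CPM in WT, with no overlap. This is a log2 fold change of 0.40 ± 0.13 (SE; adjusted p = 0.452, edgeR). Both memory libraries lay above all WT libraries at 8.10% of members and at 9.65% of all clusters.

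The remaining miRNA clusters among the 10 most abundant overlapped between groups. At *MIR824*, whose miRNA targets the mRNA of the MADS-box factor AGL16, the interval with the 3′ arm had 25.2 and 50.4 CPM in memory and 22.5 to 36.3 CPM in WT. The interval with its 5′ arm, Cluster_12854, lay 502 bases upstream on the same gene and had 6.02 and 8.51 CPM in memory and 7.14 to 10.1 CPM in WT. At *MIR319a*, whose miRNA targets mRNAs of TCP factors, values were 9.22 and 5.07 CPM in memory and 6.95, 26.9, 11 and 9.87 CPM in WT. At *MIR846* memory 1 stood at 17.4 CPM and memory 2 at 8.83 CPM, against 8.55 to 10.3 CPM in WT, and at *MIR844* all 6 libraries lay between 74.2 and 91.4 CPM.

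Of the list of 36 miRNA families, 35 matched annotated genes (107 loci). These had 20 narrow and 66 wide clusters. Of the 15 narrow ones tested, 0 passed an adjusted or an unadjusted p of 0.05 in edgeR and DESeq2 called 0, 8 had a positive and 7 a negative log2 fold change, and the median was 0.00. The 6 *TAS* genes, which give rise to trans-acting siRNAs, had 0 narrow and 5 wide clusters. The 36 genes of the sRNA and DNA methylation pathways had 0 narrow and 8 wide ones. The marker genes of tissues had no narrow clusters either: wide ones lay at 23 for the abundant photosynthetic mRNAs of leaves, 4 for flower, 0 for seed, 1 for root and 6 for defence genes. Such clusters do not mark a cell type, so the tissue could not be checked on the members.

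At several miRNA genes a narrow cluster was filled in some libraries and empty in others, while a gene with the same mature sequence held the counts. *MIR164a* and *MIR164b* encode the same miRNA, which targets NAC factors of the CUC group. Cluster_7229 at *MIR164a* had 0 and 211 counts in memory, against 0, 162, 0 and 115 in WT. The wide cluster at *MIR164b* had 1822 and 1471 counts in memory, against 4988, 2668, 3466 and 2152 in WT. The narrow cluster thus held 0% or 12.5% of the counts of both in memory and 0% to 5.72% in WT. Summed over both genes, the level was 209 ± 93.9 CPM in memory and 261 ± 69.1 CPM in WT (SD, n = 2 and 4).

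For miR394, which targets the mRNA of the F-box protein LCR, the share at the narrow cluster ranged more widely between libraries. Cluster_720 at *MIR394a* had 118 and 0 counts in memory, against 0, 32, 0 and 94 in WT. The wide cluster at *MIR394b* had 1 and 86 counts in memory, against 271, 201, 100 and 89 in WT. The share at *MIR394a* ran from 0% to 99.2% between the memory libraries and from 0% to 51.4% among WT. The sum over both was 9.30 and 14.1 CPM in memory, within the range of 8.71 to 18.3 CPM in WT. The fitted fold change at *MIR394a* (log2 0.85 ± 2.06, SE) therefore describes 1 of 2 places for the same sequence.

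**Figure D2:**
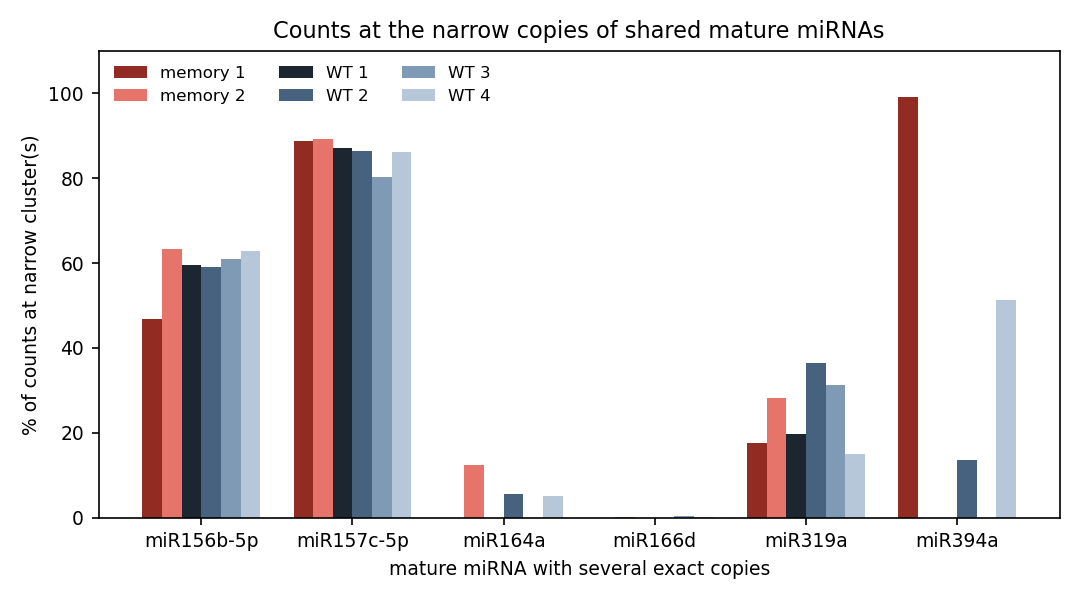
Share of counts found at the narrow clusters, in percent of the counts over all clusters that hold an exact copy of the mature miRNA, for 6 miRNAs. Each bar is 1 library, memory before WT. The share at *MIR394a* is 99.2% in memory 1 and 0% in memory 2, while that of miR157c-5p lies between 80.4% and 89.2% in all 6 libraries.

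miR166, which targets HD-ZIP III factors, had 7 clusters with an exact copy. Of these, *MIR166d* (Cluster_13673) had 0 and 21 counts in memory, against 0, 0, 61 and 0 in WT, and *MIR166g* (Cluster_16997) had 0 and 4 in memory, against 0, 0, 16 and 39 in WT. Both together never held more than 0.462% of the miR166 counts of a library. The cluster at *MIR157b* was empty in all 6 libraries, while that at *MIR157c* with the same miR157-5p sequence held 80.4% to 89.2%. The copies of miR395, which targets ATP sulfurylases, were low. *MIR395d* had 57 of its 58 counts in WT 3 and *MIR395e* 41 counts in WT 1. At *MIR319a* and *MIR156b* the share was less variable, with 15.1% to 36.5% and 46.9% to 63.4%.

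Some miRNA genes with a single exact copy also had empty libraries. Cluster_3036 at *MIR158b* had 10 and 0 counts in memory, against 60, 65, 0 and 63 in WT. Its mature sequence differs from that of *MIR158a* by C1U, and the wide cluster at *MIR158a* had 5906 to 14634 counts per library. Cluster_1127 at *MIR399a*, whose miRNA family targets *PHO2* mRNA in phosphate signalling, had 68 and 10 counts in memory, against 14, 0, 31 and 56 in WT. At *MIR845a*, also with a single exact copy, no library was empty, with 15 and 21 counts in memory, against 32, 74, 69 and 62 in WT. None of the 3 passed the test (adjusted p of 0.558 to 0.868, edgeR). How reads with mismatches were placed was not stated in the sources used here, and its part in these values was not tested.

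Between memory and WT, no narrow arm cluster passed an adjusted p of 0.05 in edgeR. Its filter on low counts left 194 of the 284 members (68.3%), against 93.9% of wide arm clusters. Of these, edgeR called 0, with a smallest adjusted p of 0.291, and it called 1 of all 15659 tested clusters (0.00639%). DESeq2, with a filter of its own, called 7 of the 140 members to which it gave an adjusted p. At an unadjusted p below 0.05 in edgeR stood 31 members (16%), against 10.5% of all tested clusters, 19 of them higher in memory (9.79%, against 4.92%) and 12 lower (6.19%, against 5.56%). Their classes were 13 in exons of protein-coding genes, 13 outside genes, 3 in introns, 1 at a miRNA gene and 1 in a pseudogene. Without memory 2 the count of 31 became 15, and without WT 1 it was 42 of 188 tested (22.3%, against 12.1% of all).

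The median log2 fold change was -0.02 over members tested and -0.03 over all tested clusters. Positive values made up 47.4% of members and 47.7% of all clusters. In size the members' fold changes were larger, with a median absolute log2 fold change of 0.692 against 0.338 for wide arm clusters and 0.352 for all. A member had a median of 189 counts over the 6 libraries and a wide arm cluster 311, and the part of these counts in that gap was not tested. Both memory libraries lay above all WT libraries at 23 members (8.10%, against 9.65% of all clusters) and below them at 26 (9.15%, against 11.5%). Without memory 1 the members' median was -0.62 and without memory 2 it was -0.59.

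**Figure D3:**
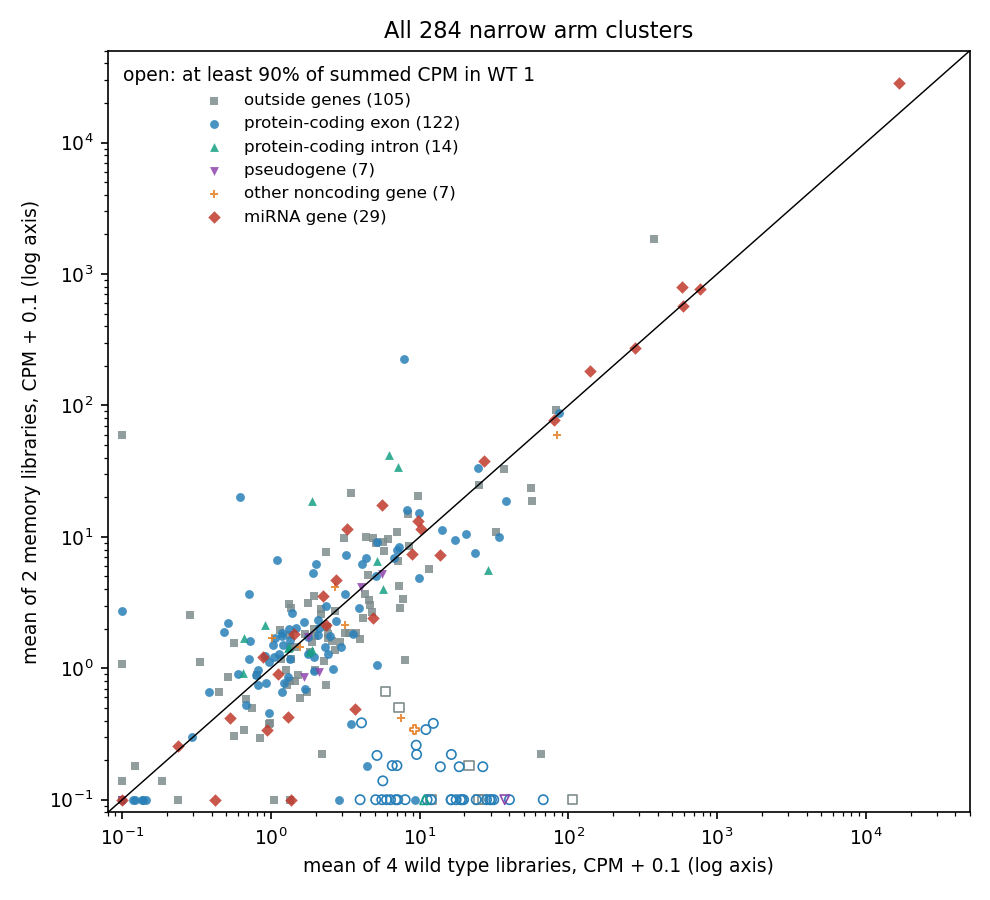
Mean CPM of each of the 284 narrow arm clusters in 2 memory libraries (vertical) and 4 WT libraries (horizontal), both with 0.1 added and on log axes, by annotation class. The line marks equal levels. Open symbols are the 46 clusters with at least 90% of their summed CPM in WT 1, which lie along the bottom, and the *MIR398a* cluster is the point at the upper right.

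Of the members higher in memory with a mean of at least 1 CPM, the 5 with the lowest p comprised 3 intervals in introns, 1 in an exon and 1 outside genes. Having been chosen by low p, these 5 gain no support from a separation of the groups. Cluster_3234 (chr1:22086505-22086654) lay in a noncoding exon part of *ARL2* (AT1G59980), a relative of the gravitropism gene *ARG1*. It had 67 and 32 counts in memory, against 26, 23, 25 and 19 in WT. Both memory libraries stood at 5.23 to 5.24 CPM and WT at 1.66 to 2.18 CPM, a log2 fold change of 1.52 ± 0.27 (SE, adjusted p = 0.291, edgeR).

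The intron intervals varied more between the memory plants. Cluster_3315 in an intron of AT1G61780 (chr1:22813261-22813377) had 637 and 107 counts in memory, against 159, 50, 86 and 70 in WT. The CPM were 49.8 and 17.5 in memory and 3.61 to 10.7 in WT, with no overlap (log2 fold change 2.27 ± 0.52, adjusted p = 0.364, edgeR). Cluster_16748 lay in an intron of AT5G56330, annotated as *ACA8*, an alpha carbonic anhydrase gene. It had 15.3 and 69.0 CPM in memory, against 9.11, 2.02, 7.75 and 5.64 CPM in WT (log2 fold change 2.77 ± 0.71, adjusted p = 0.408, edgeR). Cluster_3298 in an intron of AT1G61390 had 2.19 and 35.0 CPM in memory, against 1.69, 0.794, 1.74 and 2.91 CPM in WT. Here memory 1 lay within the WT range and the mean came from memory 2.

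The fifth, Cluster_7665 (chr3:4727092-4727135), had 104 and 70 counts in memory, against 56, 72, 66 and 48 in WT. Its log2 fold change was 1.04 ± 0.28 (SE, adjusted p = 0.413, edgeR). It shared 43 identical bases with Cluster_7667 and with Cluster_7668, which lies in a noncoding exon part of *ESM1*, a modifier of glucosinolate breakdown. The 3 intervals span chr3:4727092-4729580 and had near-equal counts in each library, so they are 1 sequence and not 3 results. Summed, they had 280 and 205 counts in memory, against 169, 236, 200 and 149 in WT, or 27.7 ± 8.24 CPM in memory and 14.8 ± 2.96 CPM in WT.

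**Figure D4:**
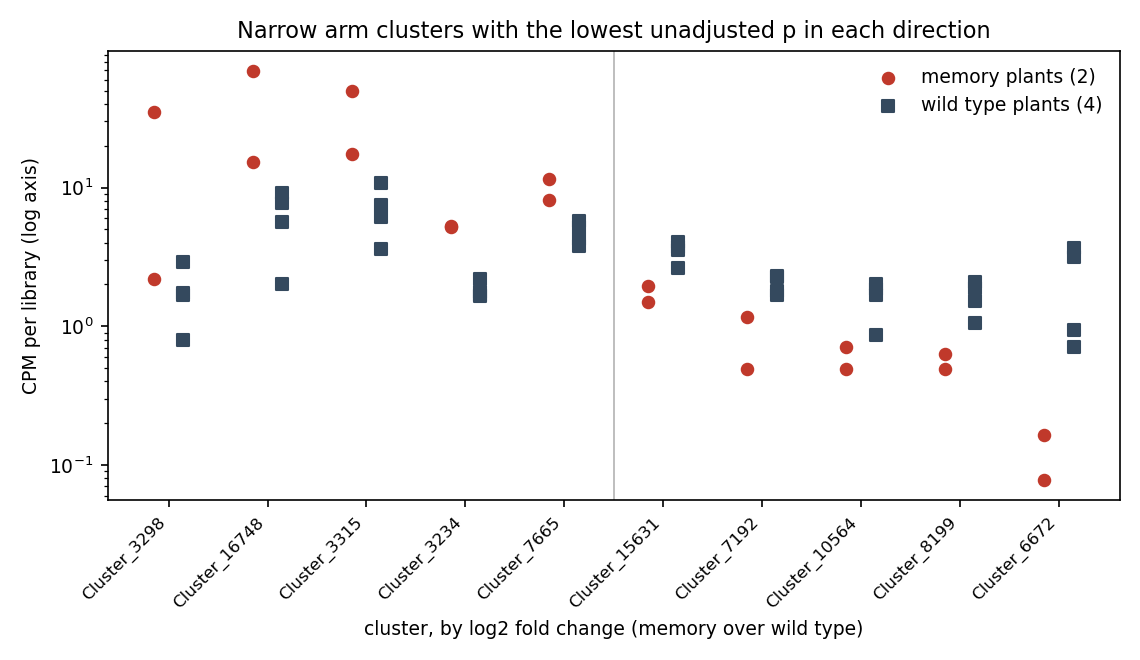
Level of the 5 narrow arm clusters with the lowest unadjusted p that were higher in memory (left of the line) and the 5 that were lower (right), as CPM on a log axis, ordered by log2 fold change. Circles are the 2 memory libraries and squares the 4 WT libraries. Cluster_3234 has both memory libraries near 5.24 CPM, and Cluster_3298 has 1 memory library among those of WT.

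The 5 lower in memory had few counts. Cluster_6672 (chr2:13657646-13657798, outside genes) had 1 and 1 counts in memory, against 14, 51, 36 and 8 in WT, a log2 fold change of -4.15 ± 1.13 (SE, adjusted p = 0.417, edgeR). Cluster_15631 lay in a coding exon of *GORK*, the outward potassium channel of guard cells, with 19 and 12 counts in memory, against 60, 52, 30 and 40 in WT. Its log2 fold change was -1.03 ± 0.34 (SE, adjusted p = 0.452, edgeR).

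The others of this group had at most 28 counts in a library. Cluster_8199, outside genes, had 8 and 3 counts in memory, against 28, 21, 24 and 12 in WT. Cluster_10564 in an exon of *ARFA1E*, a small GTPase of vesicle traffic, had 9 and 3 counts in memory, against 25, 12, 23 and 21 in WT. Cluster_7192 in the pseudogene AT2G46730 had 15 and 3 counts in memory, against 25, 25, 26 and 26 in WT. None of the 5 overlapped between groups, and their adjusted p lay between 0.417 and 0.456 (edgeR). Having been chosen by low p, they gain no support from this separation. Both memory libraries lay below all WT libraries at 9.15% of members, against 11.5% of all clusters.

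Of the tested members, 4 were at 0 throughout one group. They passed the filter on low counts only through the group with counts and were singled out by their zeros. Their folds and p-values are therefore descriptions and no support for a difference. The share of such clusters among all tested clusters is not given here. Cluster_7093 (chr2:18172872-18173066), in an exon of AT2G43880, had 23 and 21 counts in memory and 0 in each of the 4 WT libraries. Against a floor of 3 counts in each WT library it was at least 11.1-fold higher in memory (adjusted p = 0.303, edgeR). Cluster_3077 (chr1:21061711-21061737), 27 bases in a noncoding exon part of the phloem protein gene *PP2-B14*, had 0 counts in both memory libraries, against 3, 13, 246 and 163 in WT. Against the same floor per memory library it was at least 25.5-fold lower in memory, while WT libraries themselves ran from 0.202 to 21.4 CPM. The other two were at 0 in memory and also in part of WT, where Cluster_6839 had 37, 34, 0 and 0 counts and Cluster_10095 had 0, 34, 0 and 15.

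The 7 members called by DESeq2 were 5% of the 140, against 2.09% of all clusters. Of these, 6 were higher in memory, against 0.866% of all clusters, namely Cluster_3234, Cluster_3315, Cluster_16748, Cluster_3298, Cluster_13700 and Cluster_7162. The 1 lower, against 1.22% of all clusters, was Cluster_3077. Cluster_7162 rested on memory 2 alone, with 732 counts there and 0 in the other 5 libraries, and edgeR's filter had removed it. The call therefore depended on the tool for every one of the 7.

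Of the members with at least 10 counts, 54 of 267 drew at least 90% of their summed CPM from 1 library (20.2%), against 138 of 10086 wide arm clusters (1.37%) and 1.94% of all clusters. Memory 1 and memory 2 led 0 and 4 of them, and WT 1 to WT 4 led 46, 2, 1 and 1. The limit of 90% was chosen after the values were seen, and with limits of 80% and 95% the number was 56 and 49. Computed over the 5 libraries without WT 1, it was 12. Among wide arm clusters WT 1 also led most, with 108 of the 138. Of narrow clusters outside the arms, 4 of 42 were carried by 1 library (9.52%), and WT 1 led all 4. A dominant WT 1 is thus not particular to narrow clusters of the arms.

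The 46 members led by WT 1 had 230 to 6348 counts there, with a median of 707.5, and no more than 7 counts in any other library. At 21 of them all other libraries were at 0. Together they made up 49441 counts, 0.273% of WT 1 (95% Wilson interval 0.270% to 0.275%, counting error alone) and 11.3% of its counts in narrow arm clusters. Of the 46, 36 lay in exons of protein-coding genes. Their median GC content was 47.0%, against 36.3% for members with no dominant library.

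The highest was Cluster_12395 (chr4:8761526-8761667, outside genes), with 6348 counts in WT 1. Cluster_13558, the 26 bases shown above, lay in a coding exon of *SYN1*, a cohesin of meiosis, and had 4014 counts. Cluster_3509, the 15 bases shown above, lay in the pseudogene AT1G65385 and had 2210 counts. All 3 had 0 counts in both memory libraries and in WT 2, WT 3 and WT 4. The nature of these reads was not tested.

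**Figure D5:**
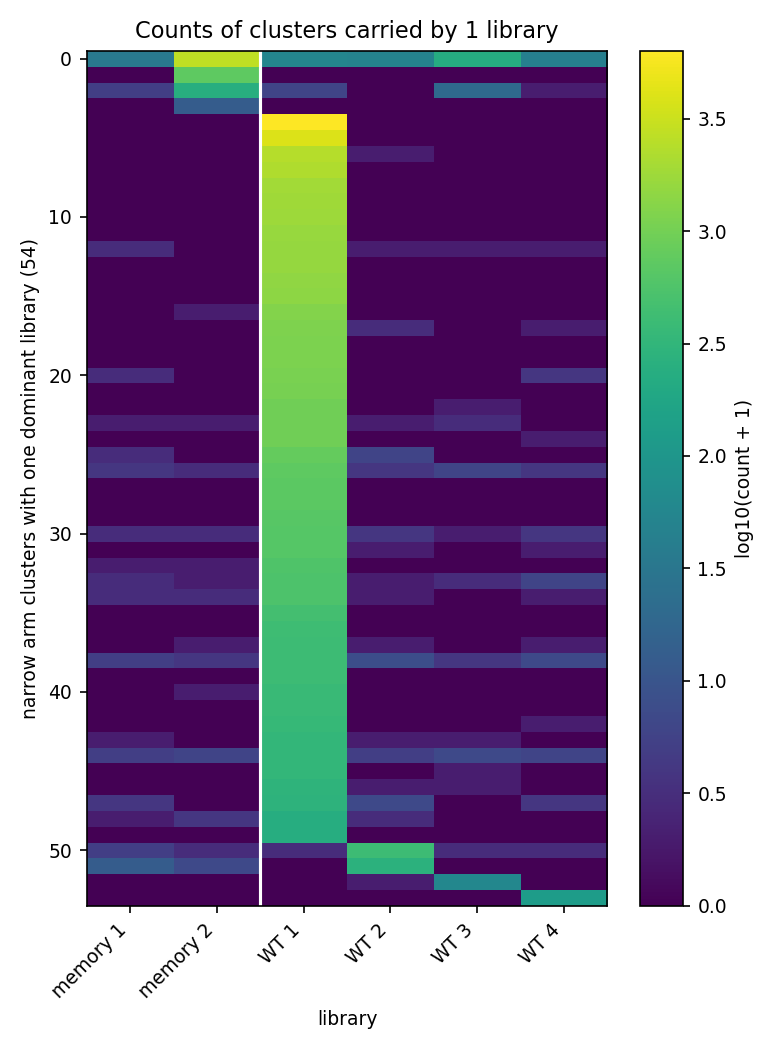
Counts, as log10(count + 1), of the 54 narrow arm clusters with at least 90% of their summed CPM in 1 library. Each line is a cluster and each column a library, memory left of the white line. The block of 46 clusters led by WT 1 has at most 7 counts in the other libraries, and 4 clusters are led by memory 2.

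The clusters led by memory 2 included 2 of the shortest intervals. Cluster_15761 (chr5:15478744-15478767), 24 bases in noncoding exon parts of AT5G38680 and AT5G38690, had 33 and 2720 counts in memory, against 53, 50, 227 and 43 in WT. Cluster_13002, 21 coding bases of AT4G28670, had 4 and 241 counts in memory, against 5, 0, 19 and 1 in WT. Memory 2 and, more weakly, WT 3 were high at both. Without memory 2 the log2 fold change was -1.57 at Cluster_15761, against 4.86 with it, and -0.70 at Cluster_13002, against 5.25 with it. At *MIR851* and *MIR166d* the same pair of libraries was high, with 131 and 21 counts in memory 2 and 108 and 61 in WT 3.

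Exact matches of at least 30 bases to the plastid or mitochondrial genome were found in 7 members (2.46%). The share was 0.661% among wide arm clusters and 2.27% among narrow clusters outside the arms (1 of 44). Most abundant of the 7 members was Cluster_13700 (chr5:3111014-3111076, outside genes), 61 of whose 63 bases match the plastid gene of 5S ribosomal RNA. It had 6374 and 19467 counts in memory, against 5297, 3678, 6711 and 3365 in WT. At 498 and 3184 CPM in memory and 357, 266, 585 and 297 CPM in WT, memory 2 was high and memory 1 lay within the WT range (log2 fold change 2.29 ± 0.68, adjusted p = 0.438, edgeR). A read from the plastid copy cannot be told apart from one of this nuclear interval.

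Cluster_1244 (chr1:11131148-11131309, outside genes) matched the plastid genome over 59 bases, away from annotated genes. It had 201 and 152 counts in memory, against 123, 94, 146 and 123 in WT. The groups did not overlap after scaling (log2 fold change 1.07 ± 0.32, adjusted p = 0.438, edgeR). Such a separation, with memory higher, was found at 8.10% of members and at 9.65% of all clusters. Cluster_7162 matched over 45 bases, and its counts came from memory 2 alone. Cluster_6140 matched the plastid NADH dehydrogenase subunit 2 gene over 76 bases and had 6 to 56 counts in all libraries. Cluster_4289 matched the gene of the Rubisco large subunit over 49 bases and had 2 counts in all.

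Several abundant members were neither miRNA genes nor organellar. Cluster_2770 (chr1:18948288-18948470), which overlaps a coding exon of the protease gene *DEG6*, was steady, with 104 and 70.8 CPM in memory, against 89.3, 96.3, 74.6 and 84.6 CPM in WT. Cluster_18 (chr1:81687-81834, outside genes) had 72.2 and 111 CPM in memory, against 224, 25.7, 44.3 and 38.1 CPM in WT, with WT 1 highest. Cluster_7190, the 22 bases shown above within the noncoding gene AT2G09755, had 66.8 and 52.2 CPM in memory, against 79.1, 97.1, 63.3 and 94.0 CPM in WT. Its log2 fold change of -0.49 ± 0.22 (SE) had an adjusted p of 0.503 (edgeR). Cluster_13332 (chr4:17985768-17985790, outside genes) had 1 and 1 counts in memory, against 2494, 2, 0 and 1078 in WT, so that the WT libraries split among themselves.

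By width, the 33 members of 30 bases or less included 0 at miRNA genes and 13 led by 1 library, against 24 miRNA genes among the 176 members wider than 100 bases. Their GC content ran from 19.0% to 75%. At the upper end of the rule, Cluster_12364 (198 bases) had 13 and 14 counts in memory and 25 to 33 in WT, and Cluster_3992 (200 bases) had 178 and 100 in memory and 94 to 166 in WT. Just outside it, Cluster_3430 (201 bases) had 481 and 1663 counts in memory, against 266, 0, 247 and 0 in WT, and Cluster_206 (202 bases) had 49 and 32 in memory and 20 to 44 in WT.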

How the data were processed

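Small RNA was sequenced from 6 single plants, 2 memory and 4 WT. Each deposited table holds unscaled whole-number read counts, 1 for each cluster. The authors aligned reads to TAIR10 with ShortStack, which in its default mode places a read matching several sites by the uniquely placed reads nearby. The definition of clusters and the counting of reads are not given in the sources used here. The study speaks of screening 24-nt sRNAs, but no source says whether the tables themselves were limited to a read length.

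Positions follow the tables (TAIR10, first base 1). Genes and sequences came from RefSeq TAIR10.1, and all intervals ended within its chromosomes. Counts of all clusters entered one edgeR 4.0.16 quasi-likelihood fit (R 4.3.3), which had group as its only term, TMM factors, the default filterByExpr filter and Benjamini-Hochberg adjustment over all tested clusters. The test was also run on simulated counts, and no result here rests on that run. Those counts were drawn with a smaller spread than the data, whose common biological coefficient of variation was 0.49. Standard errors are approximate, taken from each log2 fold change and its F statistic. DESeq2 1.42.0 and other settings served as alternatives. Shares of counts were compared by exact permutation in scipy 1.17.1. Folding energies came from RNAfold (ViennaRNA 2.7.2). The memory plants were full sibs, and no source says whether the WT plants shared a parent. The p-values therefore measure the spread between these plants and not between families.

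Named clusters were those with an adjusted p below 0.05 in edgeR (0 members), the 10 highest by mean CPM overall and at miRNA genes, the 5 with the lowest p in each direction with a mean of at least 1 CPM, members at listed genes with a mean of at least 1 CPM, and those at the width limit. Other clusters named, such as those carried by 1 library, matching organelles, folding tightly, at 0 in a whole group or called by DESeq2, were singled out after their values were seen. The members and lists were chosen with earlier results of these data known.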

Additional observations from a re-analysis of the deposited data

Results flagged for a closer look

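Of 46 values examined among the 4 WT libraries, 8 had 1 library set apart from the other three by more than the 95% limit of Dixon's gap test, against 2.3 that chance gives at about 1 in 20. The 2.3 holds for independent values of normal spread. Some of these values share clusters, and *MIR166d* had counts in WT 3 alone among WT libraries. The 8 against 2.3 is therefore a description and shows no excess over chance. The value given for each of the 8 is the gap to the nearest library divided by the whole range. For the share of counts in exons of protein-coding genes it was 0.971 and for the density of narrow arm clusters it was 0.92, with WT 1 high in both. WT 1 was also high at Cluster_18 outside genes (0.906). WT 4 was high at *MIR844*, Cluster_6176 (0.902). WT 3 was high at *MIR824*, Cluster_12855 (0.846), at *MIR166d*, Cluster_13673 (1), at Cluster_15761 in AT5G38680 (0.987) and at *MIR391*, Cluster_16885 (0.851).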

How the results depend on the processing

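With 2 memory plants, edgeR called 0 members under each of its alternatives and with each library left out (0 to 0), while DESeq2 called 7. At an unadjusted p below 0.05 there were 31 members, 20 with a width limit of 150 bases and 15 to 42 with 1 library left out. Replicate numbers stand for different plants, and the deviations of same-numbered ones correlated by -0.03 and -0.10. A fit with these numbers as a block gave 13 members, and one on the same 4 libraries without the pairing, added after the data were seen, gave 17. The median log2 fold change of -0.02 became -0.23 with library size alone, -0.37 without a filter, 0.0263 with at least 10 counts in every library, -0.32 in DESeq2, -0.0671 at a width of 250 bases, -0.0869 in the 4 libraries without pairing, and -0.621 to -0.0301 with 1 library left out. For the share at miRNA genes, memory minus WT was 0.706 percentage points, but -0.0182 without the *MIR398a* cluster, -0.00835 at a width of 150 bases and 0.244 to 1.17 with 1 library left out. That in exons was -0.056 to 0.0136 with 1 library left out, and that outside genes was -0.0206 to 0.178, or -0.176 at a width of 250 bases. The density difference was -2.73 CPM without division by width and 0.552 to 0.834 CPM per 100 bases with 1 library left out, positive each time.

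Of 461 fold changes of 41 named clusters under alternatives, 419 kept sign and call, 6 gained a call in DESeq2 and 36 at 14 clusters changed sign, none of them called. With library size alone the log2 fold change was -0.154 at Cluster_2770, -0.196 at Cluster_7170 and -0.213 at Cluster_13673. With at least 10 counts in every library it was -0.017 at Cluster_7170. With the replicate block it was -0.112 at Cluster_2770, 0.024 at Cluster_6176, 0.174 at Cluster_7819 and 0.008 at Cluster_13097. With 1 library left out it ran from -0.209 to 1.346 at Cluster_18, -7.925 to 2.59 at Cluster_720, -0.366 to 1.555 at Cluster_1127, -0.273 to 0.27 at Cluster_2770, -0.124 to 0.84 at Cluster_3287, -0.112 to 0.043 at Cluster_6176, -0.132 to 0.202 at Cluster_7170, -9.134 to 2.672 at Cluster_7229, -0.23 to 0.131 at Cluster_7819, -0.1 to 0.911 at Cluster_12855, -0.698 to 6.251 at Cluster_13002, -0.404 to 0.26 at Cluster_13097, -7.083 to 1.396 at Cluster_13673 and -1.575 to 5.929 at Cluster_15761. The cause was not tested. Where a group was left with 1 library, that library was assumed to vary like the others.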
